A study of Mus musculus with 24 samples.

Results

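The Ly6 superfamily of surface proteins was followed through 7 genes, Ly6a, Ly6c1, Ly6c2, Ly6e, Ly6g, Ly6g5b and Lypd6b, taken by symbol from a table of 43629 genes, and all 7 were found there. Their mRNA was measured by RNA sequencing in a mouse line of acute myeloid leukaemia that expresses Cas9 and is driven by the MLL-AF9 fusion oncogene. The 24 libraries form 8 groups of 3, harvested on day 9 after infection with guide RNAs (multiplicity of infection 0.3; 2 ug/ml puromycin for 72 hours, begun at 48 hours). One group received a non-targeting guide and is the control, one is a knockout of DOT1L, and MLLT10, MLLT1 (ENL) and MLLT6 (AF17) were each knocked out with guides G1 and G2. Every group, the control included, carries MLL-AF9, Cas9 and a guide vector, and all come from the same line. The column headers also name YFP for every library. DOT1L methylates histone H3, and the other targets encode partners found in its complex. The question for each Ly6 gene is how its mRNA level differs when DOT1L or a partner is lost. Nothing in the labels says that replicates were cultured separately, so the p-values speak of the spread between libraries, and that spread may be technical. The titles give the DOT1L and control groups no guide numbers. The column headers repeat a single guide name over all DOT1L libraries, and another over all control libraries. An effect of a single guide thus cannot be told apart from the knockout there.

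Ly6 proteins share a compact fold held together by disulfide bonds, and most are tethered to the outer membrane by a glycosylphosphatidylinositol (GPI) anchor. In mouse blood they are best known as antigens that sort cells. Ly6C, encoded by Ly6c1 and Ly6c2, marks monocytes and some granulocyte precursors. Ly6G, encoded by Ly6g, marks neutrophils, and Ly6a encodes Sca-1, a marker of haematopoietic stem cells. Ly6e encodes a broadly expressed member known as a receptor for syncytin-A in the mouse placenta and as a restriction factor for coronaviruses. Lypd6b encodes a secreted or membrane-bound member known to modulate nicotinic acetylcholine receptors. Ly6g5b lies in the class III region of the major histocompatibility complex, and its role is not well known.

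On GRCm38, the assembly that mm10 names, with positions from GENCODE M21, 5 of the 7 genes lie within 204.1 kb of chromosome 15. From the left these are Ly6e (74955051 to 74959905, plus strand), Ly6a (74994877 to 74998031, minus strand), Ly6c1 (75044018 to 75048830, minus strand), Ly6c2 (75108158 to 75111970, minus strand) and Ly6g (75155240 to 75159126, plus strand). Ly6g5b is on chromosome 17 (35113948 to 35115428, minus strand) and Lypd6b on chromosome 2 (49787688 to 49948849, plus strand).

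Because near-identical genes can lose or exchange reads in counting, the first 240 coding bases of Ly6c2, Ly6c1 and Ly6g are shown. They are written 5' to 3' on the coding strand from the start codon (base 1), for the GENCODE M21 transcripts on GRCm38. Capitals in Ly6c1 and Ly6g mark bases that differ from Ly6c2.
Ly6c2: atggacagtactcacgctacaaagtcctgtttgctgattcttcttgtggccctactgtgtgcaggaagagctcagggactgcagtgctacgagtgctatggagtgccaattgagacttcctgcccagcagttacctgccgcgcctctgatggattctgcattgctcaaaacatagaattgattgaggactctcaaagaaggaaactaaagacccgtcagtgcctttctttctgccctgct
Ly6c1: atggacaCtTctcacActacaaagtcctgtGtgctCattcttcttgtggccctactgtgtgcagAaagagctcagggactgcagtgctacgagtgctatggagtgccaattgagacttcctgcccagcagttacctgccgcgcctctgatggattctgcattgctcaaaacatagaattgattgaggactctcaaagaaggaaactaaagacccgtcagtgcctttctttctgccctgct
Ly6g: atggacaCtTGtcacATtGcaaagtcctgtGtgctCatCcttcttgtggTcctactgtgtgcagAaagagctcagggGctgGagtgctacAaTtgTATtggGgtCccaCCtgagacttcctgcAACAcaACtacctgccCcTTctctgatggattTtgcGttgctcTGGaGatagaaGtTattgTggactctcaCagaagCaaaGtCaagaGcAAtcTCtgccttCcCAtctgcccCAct
In this stretch Ly6c1 differs from Ly6c2 at 6 bases and Ly6g at 54. Over the whole coding sequence Ly6c1 differs at 9 of 396 aligned positions (97.7% identical), whereas Ly6g is identical at 317 of 405 aligned columns (78.3%). Over annotated transcripts, 259 of the 2737 distinct 75-base windows of Ly6c2 (9.46%) and 336 of the 1764 of Ly6c1 (19%) also occur in another annotated gene, as do 83 of the 1311 of Ly6a (6.33%). None of the 867 windows of Ly6g does, and none of those of Ly6e, Ly6g5b or Lypd6b. With 50-base windows the shares were 14.5% for Ly6c2, 32.8% for Ly6c1, 19% for Ly6a and 0.448% for Ly6g. The sources used here do not give the read length. Windows of 75 bases of Ly6c1 are shared with Ly6c2 and Ly6a, and those of Ly6a with Ly6c1 and Ly6i. Values of Ly6c1 are therefore uncertain beside the far more abundant Ly6c2, and those of Ly6a beside Ly6c1, while those of Ly6g rest on sequence that is almost all its own.

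Library totals ranged from 2403044 to 7415397 counts. Dot1l mRNA stood at 41.6 to 49.0 counts per 1e6 counts (CPM, scaled by TMM) in the DOT1L knockout against 69.7 to 75.1 in the control. Mllt10 stood at 7.98 to 12.1 against 14.7 to 19.1 CPM, and Mllt6 at 14.9 to 23.3 against 30.1 to 42.2 CPM, in their own knockouts and the control. Neither was called there (edgeR adjusted p = 0.139 and 0.496). These drops were not all particular to the target: Mllt6 stood at 14.1 to 19.9 CPM in the DOT1L knockout, and Dot1l at 54.2 to 65.6 CPM in the MLLT6 knockout. Mllt1 was not lower in its own knockout, at 35 to 69.3 against 21.8 to 41.2 CPM; an edited gene can still be transcribed, so the groups are named by their labels. In 4 groups 1 library was taken to stand apart, by the chi-square per gene against the others of its group: MLLT10 G1 replicate 1 (23.4 and 34.3, and 6.92 between the others), MLLT10 G2 replicate 1 (17.9 and 23.7, and 6.98), MLLT1 G1 replicate 1 (20.2 and 28.5, and 13.4) and MLLT6 G1 replicate 3 (29.6 and 30.8, and 6.16). Results that turn on them are given without the last 2, without all 4, or without one of them. MLLT1 G2 replicate 2 lay away from its group as well (15 and 25.7, and 8.7 between the others). It was left out on its own but kept in the fits without all 4. Those fits thus still hold a library that lay away from its group. In MLLT1 against the control Lypd6b was called without all 4 (edgeR adjusted p = 0.0217). Without MLLT1 G2 replicate 2 alone it was not (0.0607). The chi-square grows with depth. MLLT6 G1 replicate 3 and MLLT1 G2 replicate 2 held 6773032 and 7415397 counts, the most of their groups. As a check of cell type, summed markers of lymphoid cells stood at 0 to 0.391 CPM in every library, whereas 12 neutrophil markers summed to 334 to 458 CPM in the control and 93100 to 107000 CPM in the DOT1L knockout. The DOT1L knockout libraries thus held strong neutrophil mRNA, and each Ly6 result below stands beside that.

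The members spanned a wide range of abundance. Per kb of exon, so that genes can be compared, the mean level over all 24 libraries was 1910 CPM per kb for Ly6c2, 64.0 for Ly6e, 57.6 for Ly6g, 5.22 for Ly6g5b, 2.94 for Ly6c1, 2.24 for Lypd6b and 1.28 for Ly6a. Ly6e and Ly6g lay closer than their spread over the libraries (SD 17.5 and 64.8), as did Ly6g5b, Ly6c1, Lypd6b and Ly6a with their neighbours in that order (SD 3.37, 1.08, 1.51 and 0.697). Ly6c2 alone supplied 0.289% to 0.810% of all counts of a library.

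**Figure D1:**
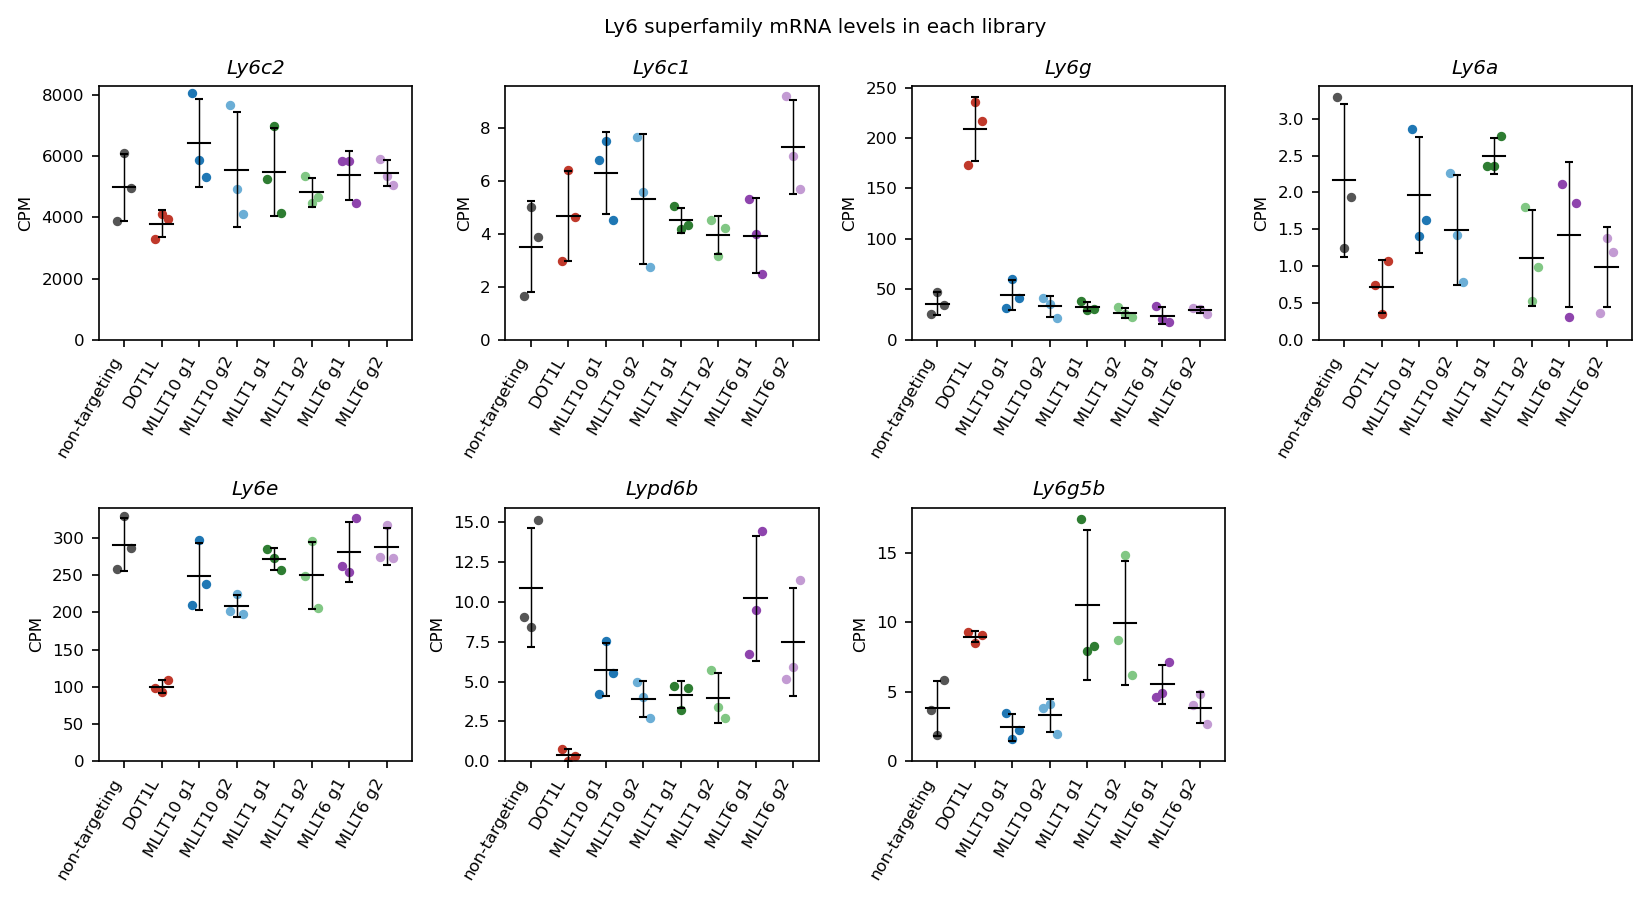
TMM-scaled CPM of the 7 members in each of the 24 libraries, with a separate linear axis from 0 for each gene. Points are libraries, and horizontal and vertical lines give the mean and SD of a group (n = 3). In the DOT1L knockout Ly6g stands at 174 to 235 CPM, above every other library, while Ly6e (92.8 to 110 CPM) and Lypd6b (0 to 0.743 CPM) stand below every other library.

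The DOT1L knockout split the members by direction. Of the 7 genes, 6 passed the filter on low counts and 4 were called at an adjusted p under 0.05, where 21.8% of all 10578 genes tested were called. Ly6g and Ly6g5b rose (11.2% of all genes rose), and Ly6e and Lypd6b fell (10.7% of all genes fell). With library totals alone in place of TMM, all genes split into 776 higher and 2096 lower, against 1181 and 1128. Ly6c2 and Ly6c1 were not called, and Ly6a was too low to be tested. The median log2 fold change was -0.01 over the 6 tested members and 0.007 over all genes tested.

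Ly6g, the neutrophil antigen gene, stood at 25.6, 47.5 and 34.2 CPM in the control and at 174, 235 and 217 CPM in the DOT1L knockout. All 3 knockout libraries lay above all 3 control libraries. The log2 fold change was 2.53 ± 0.28 (SE; 5.80-fold; edgeR quasi-likelihood test, Benjamini-Hochberg adjusted p = 3.15e-07). All 12 listed neutrophil markers also rose (11.2% of all genes rose), with a median log2 fold change of 7.22, so Ly6g rose by less than that median. The list was chosen with earlier results of these data known. Retnlg, on that list, stood at 0 CPM in the control and 61.9 CPM in the knockout on average. Cxcr2, also listed, averaged 9.52 CPM in the DOT1L knockout and 1.64 CPM in the control. Its means were 1.47, 0.932 and 1.25 CPM in the MLLT10, MLLT1 and MLLT6 knockouts. Retnlg and Cxcr2 passed the filter on low counts only through the DOT1L libraries. Their calls, and their part in the count and the median of the list, are thus not independent of that filter. In bulk RNA, more cells of a type and more RNA per cell cannot be told apart, and the part of the neutrophil programme in the Ly6g value was not tested.

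Ly6g also moved against its near relative Ly6c2. The control held 6.59, 7.80 and 6.88 Ly6g counts per 1000 Ly6c2 counts, and the DOT1L knockout 52.7, 57.1 and 54.8. The 21 libraries outside the DOT1L knockout ranged from 3.51 to 10.3. The DOT1L knockout libraries thus lay far above the rest and close to one another. The control held 0.425, 0.821 and 0.782 Ly6c1 counts per 1000 Ly6c2 counts, and the DOT1L knockout 0.903, 1.55 and 1.17. All 3 knockout libraries lay above the control, but all were within the 0.425 to 1.55 that the 21 libraries outside the DOT1L knockout spanned.

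**Figure D2:**
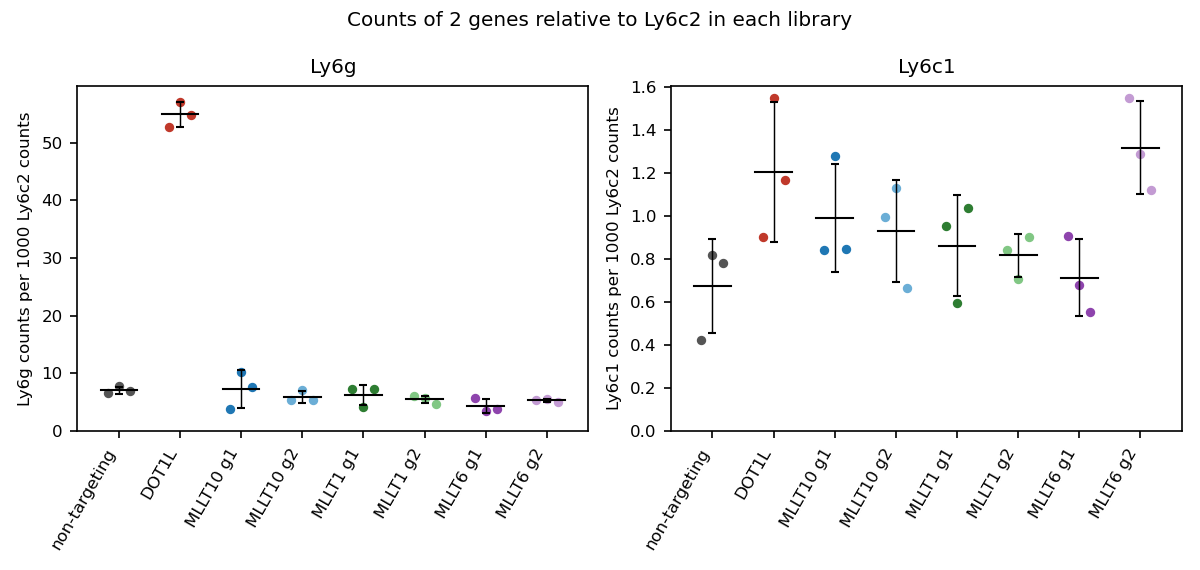
Counts of Ly6g (left) and Ly6c1 (right) per 1000 Ly6c2 counts in each library, by group; points are libraries and lines the mean and SD (n = 3). The Ly6g ratio is 52.7 to 57.1 in the DOT1L knockout and 3.51 to 10.3 elsewhere, whereas the Ly6c1 ratio of the DOT1L knockout (0.903 to 1.55) lies above the control (0.425 to 0.821) but within the range of the other groups.

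Ly6c2, the main source of Ly6C mRNA here, stood at 3880, 6090 and 4970 CPM in the control and at 3290, 4120 and 3960 CPM in the DOT1L knockout. The ranges overlapped, and the log2 fold change of -0.39 ± 0.22 (95% interval -0.85 to 0.06) was not called (edgeR adjusted p = 0.226). With library totals alone in place of TMM it was -0.64 (adjusted p = 0.0324), a scaling that moved the median of all genes to -0.238. Ly6c1 stood at 1.65, 5.00 and 3.89 CPM in the control and at 2.97, 6.40 and 4.63 CPM in the knockout, with a log2 fold change of 0.38 ± 0.44 (95% interval -0.52 to 1.28) that was not called (edgeR adjusted p = 0.603). Summed markers of monocytes and macrophages stood at 313 to 437 CPM in the control and 211 to 225 CPM in the knockout. The sum leans on Adgre1, the most abundant of these markers in the control, which fell from 219 to 39.1 CPM on average. Of the 9 tested, 4 rose and 3 fell (77.8% called, where 21.8% of all genes tested were called).

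Ly6e stood at 258, 329 and 286 CPM in the control and at 98.5, 92.8 and 110 CPM in the DOT1L knockout. Every knockout library lay below every control library. It fell by 1.54 ± 0.16 on the log2 scale (2.90-fold lower; edgeR adjusted p = 1.7e-07). Ly6e is also known as an interferon-stimulated gene. Of 16 tested genes on a list of interferon-stimulated genes, 3 rose (Cmpk2 and Ifit2 among them), 1 fell (Psmb8) and 12 were not called, and their median log2 fold change was 0.08. The called genes are 25% of those tested, where 21.8% of all genes tested were called. Ifit2 stood at 6.07 CPM in the knockout and 1.22 CPM in the control on average, and passed the filter on low counts only through the DOT1L libraries. The Ifit2 call was lost without control replicate 1 or 2, without any one DOT1L replicate and with library totals alone (0.0653 to 0.158). Psmb8, a subunit of the immunoproteasome, fell from 110 to 39.5 CPM. Ly6e fell as Psmb8 did, beside a list whose called genes went both ways and most of whose genes were not called. Any part of interferon signalling in the Ly6e value was not tested. Stem and progenitor markers summed to 785 to 942 CPM in the control and 184 to 260 CPM in the knockout. Of these markers 5 of 7 tested were lower, where 10.7% of all genes fell. Their part in the Ly6e value was not tested.

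Lypd6b gave the largest log2 change among the members. It stood at 9.07, 8.44 and 15.2 CPM in the control (22, 27 and 39 counts) and at 0.743, 0 and 0.356 CPM (2, 0 and 2 counts) in the DOT1L knockout. The knockout libraries were all near the floor of detection and below the control. The log2 fold change was -4.80 ± 0.60 (95% interval -6.05 to -3.56; edgeR adjusted p = 2.14e-06), a size that rests on 4 counts in the knockout.

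The gene next to Lypd6b moved the same way. Lypd6, a relative known to modulate Wnt and nicotinic receptor signalling, starts 117.6 kb beyond the end of Lypd6b on the same strand, and shares no 75-base window with it or with another gene. It stood at 52.3, 38.2 and 43.2 CPM in the control and at 4.09, 4.98 and 1.78 CPM in the DOT1L knockout. Its log2 fold change was -3.72 ± 0.34 (edgeR adjusted p = 2.05e-08). In the MLLT10 knockout Lypd6 stood at 14.1 to 31.6 CPM, below every control library, with a log2 fold change of -0.97 ± 0.23 that was not called (adjusted p = 0.0585). It was called with no filter (0.00163), with library totals alone (0.0453), with the replicate block (0.0103), with the DESeq2 test (0.00926), without MLLT10 G1 replicate 1 or MLLT10 G2 replicate 1 (0.0195 and 0.0484) and without all 4 libraries that stood apart (0.00771). With no filter, 122 genes were called higher and 70 lower in the MLLT10 knockout, against 25 and 25. In the MLLT1 knockout Lypd6 stood at 26.5 to 43.0 CPM and overlapped the control (-0.30 ± 0.23, edgeR adjusted p = 0.602).

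**Figure D3:**
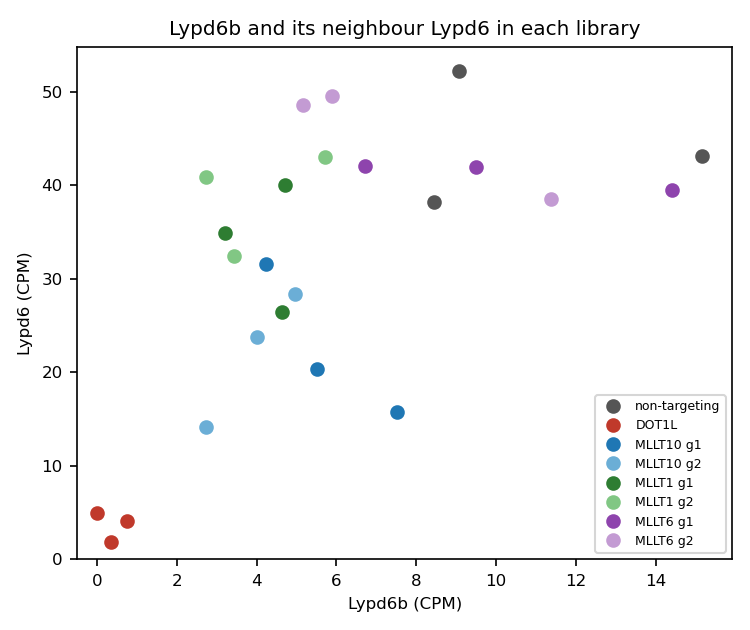
Lypd6b against Lypd6, both in TMM-scaled CPM, with each of the 24 libraries as a point coloured by group. The 3 DOT1L knockout libraries sit in the lower left corner (0 to 0.743 CPM of Lypd6b, 1.78 to 4.98 CPM of Lypd6), and the control libraries sit at 8.44 to 15.2 CPM of Lypd6b and 38.2 to 52.3 CPM of Lypd6.

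Ly6g5b stood at 3.71, 1.88 and 5.83 CPM in the control and at 9.29, 8.53 and 9.09 CPM in the DOT1L knockout. The groups did not overlap, and the knockout was higher by 1.26 ± 0.45 on the log2 scale (edgeR adjusted p = 0.0475). The call stood close to the threshold. It was lost with DESeq2 size factors (adjusted p just above the threshold, 0.05 when rounded), with library totals alone (0.0933), in a fit of these 2 groups alone (0.0542), without control replicate 1 or 2 (0.0992 and 0.244), and without any one DOT1L replicate (0.0785 to 0.105). The neighbouring gene Csnk2b, a subunit of casein kinase 2, ends 768 bases upstream of Ly6g5b on the same strand and stood at 119 to 180 CPM in the control and 215 to 236 CPM in the DOT1L knockout (0.51 ± 0.20, edgeR adjusted p = 0.0742). Whether reads that run past Csnk2b reach Ly6g5b was not tested.

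Ly6a, the Sca-1 gene, had 162 counts over all 24 libraries and reached the filter's 3.12 CPM in 1 of them. It stood at 3.30, 1.25 and 1.94 CPM in the control (8, 4 and 5 counts) and at 0.743, 0.355 and 1.07 CPM (2, 1 and 6 counts) in the DOT1L knockout. The knockout libraries were all below the control, at a depth of few counts. With no filter its log2 fold change was -1.43 and was not called (edgeR adjusted p = 0.327). A difference in Ly6a was thus not detectable at this depth.

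**Figure D4:**
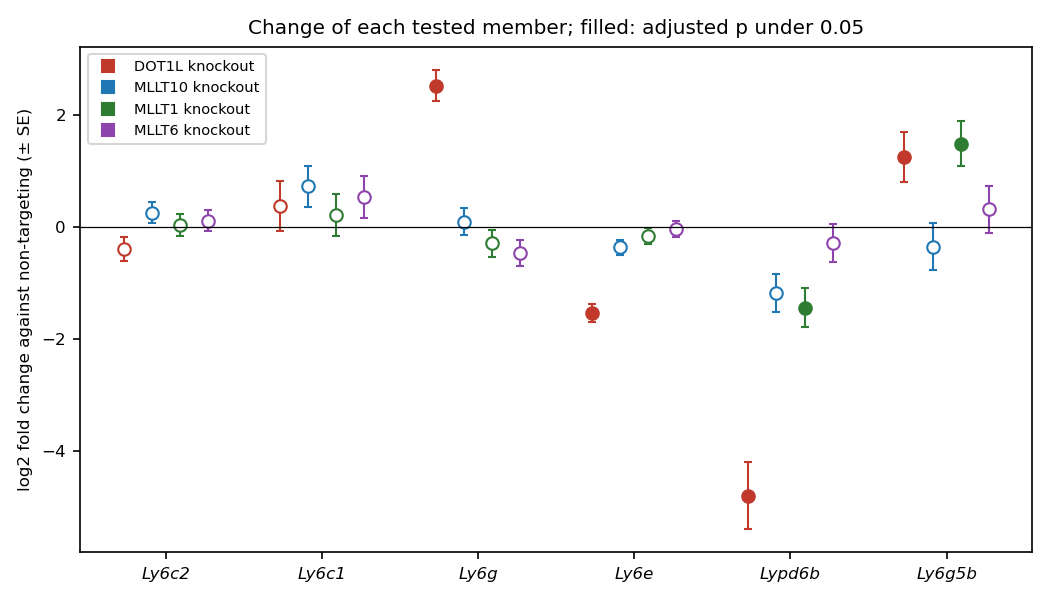
Log2 fold change (± SE, edgeR) of the 6 tested members in each knockout against the non-targeting control; for MLLT10, MLLT1 and MLLT6 both guides are averaged. Filled points have an adjusted p under 0.05: Ly6g, Ly6e, Lypd6b and Ly6g5b in the DOT1L knockout, and Lypd6b and Ly6g5b in the MLLT1 knockout.

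In the MLLT1 knockout 2 of the 7 members were called, where 2.58% of all genes tested were called: Ly6g5b rose (0.974% of all genes rose) and Lypd6b fell (1.61% of all genes fell). Lypd6b stood at 4.71, 3.20 and 4.62 CPM with guide G1 and at 5.72, 3.42 and 2.73 CPM with guide G2. All 6 libraries lay below the control. The log2 fold change was -1.44 ± 0.35 (2.72-fold lower; edgeR adjusted p = 0.0248). The call was lost without control replicate 2 or 3 (adjusted p = 0.0583 and 0.268), without MLLT1 G1 replicate 2 (0.0633), without MLLT1 G2 replicate 2 or 3 (0.0607 and 0.0527), and in a fit of these groups alone (0.0684). Neither guide was called on its own, at -1.41 ± 0.42 for G1 and -1.48 ± 0.42 for G2 (edgeR adjusted p = 0.117 and 0.0842; 1.25% and 1.22% of all genes were called). The G2 value was called with the DESeq2 test (0.0315) and with no filter (0.0447).

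Ly6g5b stood at 17.5, 7.92 and 8.32 CPM with MLLT1 guide G1 and at 8.73, 14.9 and 6.20 CPM with guide G2. Each library lay above the control, and the highest was MLLT1 G1 replicate 1, a library that stood apart from its group. The log2 fold change was 1.49 ± 0.40 (2.82-fold; edgeR adjusted p = 0.047). It was 1.27 without MLLT1 G1 replicate 1 and MLLT6 G1 replicate 3 (adjusted p = 0.0798), and 1.28 without all 4 libraries that stood apart (0.0672). It was also not called in a fit of these groups alone (0.196), nor without control replicate 1, 2 or 3 (0.086, 0.34 and 0.0633), MLLT1 G1 replicate 1 (0.0916) or MLLT1 G2 replicate 1 or 2 (0.0619 and 0.119). Csnk2b stood at 173 to 280 CPM in the MLLT1 knockout (0.49 ± 0.18, edgeR adjusted p = 0.166).

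The other members were not called in the MLLT1 knockout. Ly6c2 stood at 4160 to 7000 CPM (0.04 ± 0.19, 95% interval -0.35 to 0.44), Ly6e at 205 to 295 CPM (-0.16 ± 0.14, -0.44 to 0.12) and Ly6g at 22.3 to 38.3 CPM (-0.29 ± 0.24, -0.78 to 0.21). Ly6c1 stood at 3.16 to 5.04 CPM (0.22 ± 0.38, -0.58 to 1.01), and Ly6a at 0.527 to 2.77 CPM was not tested. Neutrophil markers summed to 1950 to 2440 CPM in this knockout, above the 334 to 458 CPM of the control, and 9 of 12 rose (0.974% of all genes rose). Ly6g was not called beside them.

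In the MLLT10 knockout none of the 7 members was called, where 0.473% of all genes tested were called. At an unadjusted edgeR p under 0.05, Lypd6b and Ly6e were below the control, where 1013 of all 10578 genes tested passed that threshold. The DESeq2 test called 0 members as well. Lypd6b stood at 4.23, 7.51 and 5.51 CPM with guide G1 and at 4.95, 4 and 2.73 CPM with guide G2. All 6 libraries lay below the control, and the log2 fold change was -1.17 ± 0.34 (95% interval -1.87 to -0.46; edgeR adjusted p = 0.174). Ly6e stood at 209, 297 and 238 CPM with guide G1 and at 202, 225 and 198 CPM with guide G2, where the control held 258 to 329 CPM. The groups overlapped, and the log2 fold change was -0.36 ± 0.13 (95% interval -0.63 to -0.08; edgeR adjusted p = 0.339). Ly6g stood at 21.9 to 60.6 CPM (0.10 ± 0.24, 95% interval -0.39 to 0.60), Ly6c2 at 4090 to 8060 CPM (0.26 ± 0.19), Ly6c1 at 2.73 to 7.64 CPM (0.73 ± 0.37), Ly6g5b at 1.56 to 4.14 CPM (-0.35 ± 0.42) and Ly6a at 0.781 to 2.87 CPM, and each of these overlapped the control. Neutrophil markers summed to 807 to 1160 CPM in this knockout, and 5 of 12 rose (25 of all 10578 genes rose).

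In the MLLT6 knockout none of the 7 members was called, nor was any other gene (0% of genes tested; at an unadjusted p under 0.05, 727 of 10578 with edgeR and 739 with DESeq2, which also called 0). All members overlapped the control. Ly6c2 stood at 4460 to 5920 CPM (0.12 ± 0.19), Ly6e at 254 to 327 CPM (-0.03 ± 0.14, 95% interval -0.31 to 0.25) and Ly6g at 17.4 to 33.2 CPM (-0.46 ± 0.24, 95% interval -0.96 to 0.04). Lypd6b stood at 5.15 to 14.4 CPM (-0.29 ± 0.34), Ly6g5b at 2.70 to 7.13 CPM (0.32 ± 0.42) and Ly6c1 at 2.48 to 9.20 CPM (0.54 ± 0.38). Ly6a stood at 0.306 to 2.12 CPM.

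The guides of a gene were also compared with each other. Of 18 such differences, 6 tested members for each of 3 genes, none was called (edgeR, smallest adjusted p = 0.496), and 1 had an unadjusted p under 0.05. The largest difference between guides was 0.94 on the log2 scale. No other gene was called between guides either (0% of genes tested), so these data do not separate the guides of a gene.

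All 4 comparisons with the control share its 3 libraries, so the knockouts were also compared directly, in 6 pairs. Against the DOT1L knockout, 5 members differed in the MLLT10 knockout (23.5% of all genes), 3 in the MLLT1 knockout (19.6%) and 3 in the MLLT6 knockout (29.3%). The members that differed in all 3 were Ly6g, Ly6e and Lypd6b.

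Ly6g was lower than in the DOT1L knockout by 2.43 ± 0.22 (log2) in the MLLT10 knockout (edgeR adjusted p = 9.31e-09), by 2.82 ± 0.22 in the MLLT1 knockout (1.15e-09) and by 3 ± 0.22 in the MLLT6 knockout (3.02e-10). The means were 209 ± 31.7 CPM in the DOT1L knockout (SD, n = 3) and 38.7 ± 12.9, 29.8 ± 5.51 and 26.4 ± 6.40 CPM in the others (SD, n = 6). Ly6e was higher than in the DOT1L knockout by 1.18 ± 0.14, 1.38 ± 0.15 and 1.5 ± 0.15 (largest edgeR adjusted p = 1.34e-06). Lypd6b was higher by 3.64 ± 0.58, 3.36 ± 0.60 and 4.51 ± 0.57 (largest edgeR adjusted p = 0.000187). None of these groups overlapped with the DOT1L knockout. The Ly6g, Ly6e and Lypd6b values of the DOT1L knockout therefore differed from each of the other knockouts and not only from the control. These comparisons all share the same 3 DOT1L libraries, so they are not independent of each other.

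Ly6c2 was higher in the MLLT10 than in the DOT1L knockout by 0.66 ± 0.20 (edgeR adjusted p = 0.017), with ranges of 4090 to 8060 and 3290 to 4120 CPM that overlapped. This was not called without DOT1L replicate 1 (adjusted p = 0.0933), nor without all 4 libraries that stood apart (0.41, adjusted p = 0.074). Against the MLLT1 and MLLT6 knockouts the differences in Ly6c2 were 0.44 ± 0.19 and 0.52 ± 0.20 (edgeR adjusted p = 0.129 and 0.0507), and those ranges did not overlap with the DOT1L knockout. The difference from the MLLT1 knockout was called with no filter on low counts (adjusted p = 0.0485), with library totals alone (0.0123) and without all 4 libraries that stood apart (0.043). That from the MLLT6 knockout was called in these fits too (0.0107, 0.00607 and 0.0082), and also with the replicate block (0.0362), in a fit of these groups alone (0.00951), with the DESeq2 test (0.0371) and without MLLT6 G1 replicate 3 (0.0349).

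Ly6g5b set the MLLT1 and MLLT10 knockouts apart. It was the 1 member called between them (2.68% of all genes), with means of 2.87 ± 1.08 CPM in the MLLT10 and 10.6 ± 4.49 CPM in the MLLT1 knockout (SD, n = 6). All 6 MLLT10 libraries lay below all 6 MLLT1 libraries, for a log2 difference of -1.84 ± 0.30 (edgeR adjusted p = 0.000603). Ly6g5b was also lower in the MLLT10 than in the DOT1L knockout (-1.61 ± 0.36, edgeR adjusted p = 0.00166). The MLLT1 and DOT1L knockouts differed in Ly6g5b by 0.24 ± 0.35 (95% interval -0.48 to 0.95), which was not called.

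The MLLT1 and MLLT6 knockouts differed in 2 members (4.46% of all genes). Ly6g5b was higher in the MLLT1 knockout by 1.18 ± 0.30 and Lypd6b lower by 1.15 ± 0.29 (edgeR adjusted p = 0.0225 and 0.0244), with means for Lypd6b of 4.07 ± 1.13 and 8.84 ± 3.60 CPM (SD, n = 6). Without MLLT1 G1 replicate 1 and MLLT6 G1 replicate 3 these were 1.08 and -1.03 and were not called (adjusted p = 0.0529 and 0.0781), nor were they in a fit of these groups alone (0.0508 and 0.0536). Without all 4 libraries that stood apart Ly6g5b was called and Lypd6b was not (0.0447 and 0.0687). Leaving out MLLT1 G2 replicate 2 or MLLT6 G2 replicate 3 ended both calls, leaving out MLLT6 G1 replicate 2 that of Ly6g5b, and leaving out MLLT1 G1 replicate 2, MLLT1 G2 replicate 3 or MLLT6 G1 replicate 3 that of Lypd6b (0.0523 to 0.0978 over these). Between the MLLT10 and MLLT6 knockouts no member was called (0.766% of all genes). Ly6e (-0.32 ± 0.11), Ly6g (0.57 ± 0.20), Ly6g5b (-0.67 ± 0.32) and Lypd6b (-0.88 ± 0.29) had an unadjusted edgeR p under 0.05. The share of all genes at that unadjusted threshold is not given for this pair, so nothing is read from their number.

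Of 49 annotated genes within 500 kb of the chromosome 15 cluster, 30 had no count and 5 could be tested, of which 1 was called in the DOT1L knockout. That is 20% of those tested, where 21.8% of all genes tested were called. I830127L07Rik, which lies between Ly6c2 and Ly6g (75131377 to 75135128, minus strand), is an unprocessed pseudogene in GENCODE M21 and a protein-coding gene named Ly6a2 in RefSeq. It stood at 68.4, 114 and 104 CPM in the control and at 801, 1070 and 889 CPM in the DOT1L knockout, with no overlap. Its log2 fold change was 3.27 ± 0.26 in the DOT1L knockout (edgeR adjusted p = 1.41e-09), 1.36 ± 0.22 in the MLLT10 knockout (0.00224) and 1.6 ± 0.22 in the MLLT1 knockout (0.000151). In the MLLT10 and MLLT1 knockouts it stood at 166 to 290 and 242 to 372 CPM, above every control library, while Ly6g and Ly6c2 on either side overlapped the control. In the MLLT6 knockout it stood at 60 to 128 CPM (0.02 ± 0.21, edgeR adjusted p = 0.985). Of its 804 distinct 75-base windows, 10 (1.24%) occur in another annotated gene. With no filter on low counts 9030619P08Rik was called higher in the DOT1L knockout as well (edgeR adjusted p = 0.0211). It had 0 counts in each control library and 6, 7 and 11 in the DOT1L knockout (2.23, 2.49 and 1.96 CPM), and at most 4 in any other library. With library totals alone Lynx1, in the same list, was called lower there (0.0332).

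**Figure D5:**
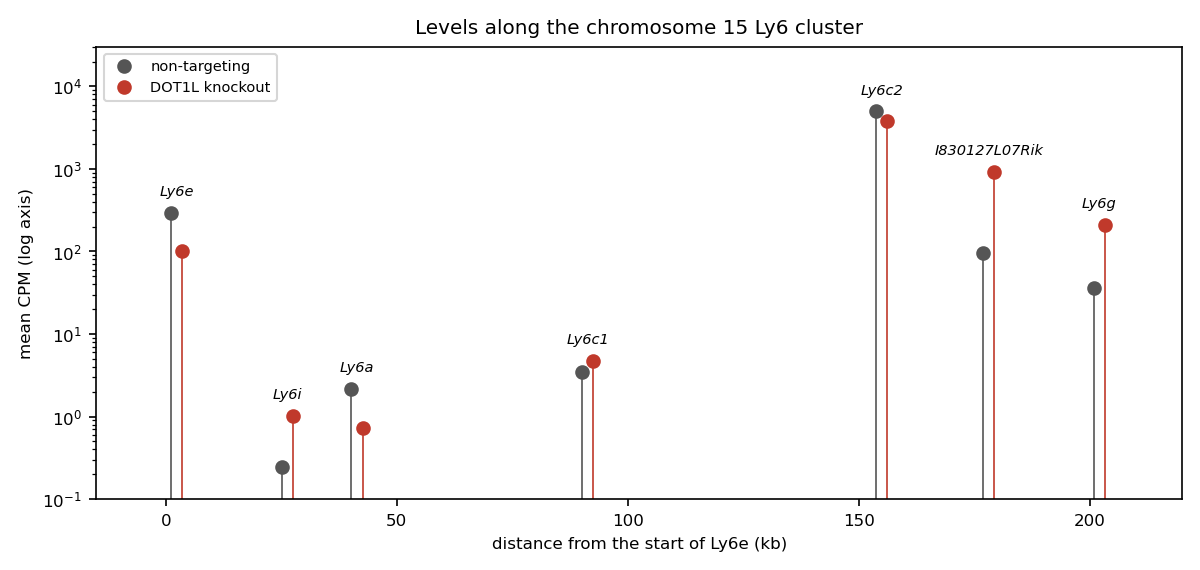
Mean TMM-scaled CPM (log axis) of genes along the chromosome 15 cluster, placed by distance from the start of Ly6e in kb, in the control and the DOT1L knockout (n = 3 each; the paired points are set slightly apart for legibility). Ly6g (35.8 and 209 CPM) and I830127L07Rik (95.4 and 919 CPM) are higher in the knockout, Ly6e is lower (291 and 100 CPM), and Ly6c2, which was not called, stands at 4980 and 3790 CPM.

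Among the other listed genes of the Ly6 and uPAR family, 36 were in the table, 20 of them without a count, and 5 were tested. In the DOT1L knockout Cd177, a neutrophil surface glycoprotein gene with Ly6-type domains, rose and Lypd6 fell, and Plaur, Lynx1 and Pate2 were not called. Cd177 stood at 2.06, 3.13 and 3.5 CPM in the control and at 359, 451 and 417 CPM in the knockout (7.12 ± 0.41, edgeR adjusted p = 7.96e-12). In the MLLT1 knockout Cd177 stood at 11.5 to 20.5 CPM (2.41 ± 0.39, edgeR adjusted p = 0.00111), all above the control, and no other gene of the list was called there, though Plaur was with no filter (0.00054). In the MLLT10 knockout it stood at 3.52 to 9.90 CPM (1.39 ± 0.41, edgeR adjusted p = 0.176), and no gene of the list was called in the MLLT10 or the MLLT6 knockout with TMM and the filter. With no filter and with the DESeq2 test Cd177 was called higher in the MLLT10 knockout (0.00107 and 0.0493) and Lypd6 lower, as given above. Both neutrophil surface genes of the family, Ly6g and Cd177, thus rose in the DOT1L knockout, and of them Cd177 was called in the MLLT1 knockout. Plaur, the urokinase receptor gene, stood at 4.53, 3.13 and 11.7 CPM in the control (mean 6.44). In the DOT1L knockout it stood at 10.8, 17.8 and 65.9 CPM (mean 31.5), so the groups overlapped and that mean leaned on replicate 3. Replicate 3 was also the highest Plaur library in every other group but MLLT6 G1. Plaur changed with a wide error (2.34 ± 0.91, edgeR adjusted p = 0.0693). It was called with no filter (1.34e-09), with the replicate block (0.0144), in a fit of these groups alone (0.0221), without DOT1L replicate 1 (0.047) and without all 4 libraries that stood apart (0.046).

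The machinery that attaches GPI anchors was followed as well. Of 24 tested genes of GPI synthesis and remodelling, 2 fell in the DOT1L knockout (8.33%, where 10.7% of all genes fell). None rose there, and none was called in the other knockouts. Piga, which encodes the catalytic subunit for the opening step, fell from 63.3 to 44.0 CPM (-0.53 ± 0.18, edgeR adjusted p = 0.0369). Pgap3, which remodels the lipid of the anchor, fell from 10.4 to 4.65 CPM (-1.17 ± 0.41, edgeR adjusted p = 0.0424). Neither call held in every fit: Piga was lost with no filter on low counts (0.0988) and without control replicate 1 or 2 or DOT1L replicate 3 (0.0732, 0.0921 and 0.194), and Pgap3 without control replicate 1 or 3 or DOT1L replicate 2 or 3 (0.119, 0.0955, 0.107 and 0.166). The median log2 fold change of these 24 genes was -0.04.

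Other GPI-anchored surface proteins of blood cells moved in both directions in the DOT1L knockout, as the Ly6 members did. Of 9 tested, 4 rose and 2 fell (66.7% called, where 21.8% of all genes tested were called). Cd24a, encoding the heat-stable antigen, rose from 320 to 843 CPM (1.40 ± 0.15, edgeR adjusted p = 2.03e-07), and Cd52, a small lymphocyte and granulocyte antigen gene, rose from 24.8 to 94.8 CPM (1.93 ± 0.25, 4.3e-06). Bst1, encoding CD157, rose from 0.389 to 11.3 CPM (4.82 ± 0.98, edgeR adjusted p = 0.000938). Its means were 0.509, 0.387 and 0.0517 CPM in the MLLT10, MLLT1 and MLLT6 knockouts. Bst1 thus passed the filter on low counts only through the DOT1L libraries, so its call is not independent of that filter. Thy1, encoding CD90, fell from 153 to 64.8 CPM (-1.24 ± 0.29, edgeR adjusted p = 0.00304). Cd14 rose (1.32 ± 0.48, 0.0484) and Cd48 fell (-0.95 ± 0.25, 0.00829), though Cd14 was lost without control replicate 2 or 3 or any one DOT1L replicate (0.0565 to 0.215) and Cd48 without control replicate 3 (0.0817). In the MLLT1 knockout Thy1 fell from 153 to 51.2 CPM (-1.57 ± 0.24, edgeR adjusted p = 0.000515), and it was the 1 gene of this list called there.

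The genes whose levels tracked each member most closely over the 24 libraries were found among 8579 genes with at least 5 CPM on average. The values are Pearson correlations of log2(CPM + 0.5), as a description; the libraries share groups and depth. For Ly6e they were Hoxa11 (0.951), Cbr2 (0.950) and Adgrg1 (0.938), and for Lypd6b Adgrg1 (0.928), Psmb8 (0.920) and Usp11 (0.913). Adgrg1, a G protein-coupled receptor gene, stood on both lists. For Ly6g they were Rcsd1 (0.936), Prdx5 (0.929) and Glipr2 (0.928). Over the 21 libraries outside the DOT1L knockout these values dropped to 0.701, 0.771 and 0.706 for Ly6e, 0.695, 0.734 and 0.698 for Lypd6b, and 0.718, 0.704 and 0.406 for Ly6g. For Ly6c2 they were Mri1 (0.932), Fth1 (0.903) and Echs1 (0.894), and 0.917, 0.878 and 0.916 without the DOT1L knockout. For Ly6c1 the highest were Wdr24 (0.743), Slc25a39 (0.730) and Fzr1 (0.723), and for Ly6g5b Svip (0.783), Tcf19 (0.781) and Lima1 (0.751).

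Among the members themselves, Ly6e and Lypd6b had a correlation of 0.889 over the 24 libraries and 0.563 over the 21 outside the DOT1L knockout. Ly6e and Ly6g stood at -0.818 and 0.122, so their opposite pattern lay in the DOT1L knockout libraries. Ly6c1 and Ly6c2 stood at 0.614 and 0.694, for genes that share 259 windows of 75 bases.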

How the data were processed

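Raw read counts per gene for the 24 libraries were deposited by the authors in a single table, with no normalization. Per the submitters' processing notes, bcl2fastq, HISAT2, HTSeq and DESeq2 were used with mm10. The sources used here do not give their versions, the annotation, the read length or the strand setting, so overlapping genes may share reads. GENCODE M21 gave a symbol for 42462 of 43629 identifiers. Replicates of a group differed beyond sampling noise (chi-square per gene 4.77 to 34.3), so 3 were counted in each group.

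Counts were tested with edgeR 4.0.16 in R 4.3.3 (TMM, filter on the 8 groups at 3.12 CPM, quasi-likelihood test, all 24 libraries in 1 fit, Benjamini-Hochberg over 10578 genes, threshold 0.05). Where a gene had guides G1 and G2, their mean was compared. SE was worked back from the log2 fold change and edgeR's F statistic (absolute change divided by the root of F). Levels are TMM-scaled CPM. Fits were tested on simulated data. Shared windows came from annotated transcripts instead of merged exons, and protein sequences were not used here. The 7 members, the lists and the rule for named genes (all members, the 3 most alike genes of each, and up to 4 called genes of a list with the smallest adjusted p in the DOT1L comparison and 2 in the others) were chosen with earlier results of these data known. One listed gene is not reported here. Other genes named are the remaining tested genes of a list or neighbours described with their members. The alternatives were no filter, DESeq2 1.42.0 size factors and test, library totals alone, a replicate block, fits restricted to the compared groups, and leaving out libraries. Precision at low counts is set by depth. Python 3.11.15, pandas 2.3.3 and matplotlib 3.10.9 made tables and figures.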

Additional observations from a re-analysis of the deposited data

How the results depend on the processing

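The calls of Ly6g, Ly6e and Lypd6b in the DOT1L knockout kept their direction and stayed past the threshold in all 14 alternatives run for that comparison, at 2.29 to 2.79, -1.78 to -1.45 and -5.40 to -4.38 on the log2 scale. The calls of Ly6g5b, and that of Lypd6b in the MLLT1 knockout, rest on few counts and did not hold in every fit. Counts of members called moved as follows. Between the MLLT6 and DOT1L knockouts 5 members (Ly6c2 and Ly6g5b added) were called with the replicate block, without MLLT1 G1 replicate 1 and MLLT6 G1 replicate 3, without all 4 libraries that stood apart (an alternative chosen after seeing the data), in a fit restricted to these groups and with the DESeq2 test, against 3; leaving out single libraries gave 3 to 5. For MLLT1 against the control 1 was called without those 2 libraries, 1 without all 4 and 0 in a fit of its groups alone, against 2; single libraries gave 0 to 2. Between the MLLT1 and MLLT6 knockouts leaving out those 2 libraries gave 0, leaving out all 4 gave 1 and a fit of these groups 0, against 2, and single libraries 0 to 2. With no filter 1 (Ly6g) was called between the MLLT10 and MLLT6 knockouts, against 0. Over all genes, MLLT10 against the control gave 25 higher and 25 lower calls, but 48 and 57 with the DESeq2 test, 38 and 41 with the replicate block, 35 and 44 on dropping MLLT1 G1 replicate 1 and MLLT6 G1 replicate 3 together, 122 and 70 with no filter, 17 and 11 in a fit of its groups alone, and 8 and 7 without control replicate 2. MLLT1 gave 103 and 170, but 184 and 273 with the block, 201 and 262 with no filter, 36 and 61 in a fit of its groups alone, and 25 and 49 without control replicate 3. MLLT6 gave 0, but 53 and 27 with no filter. That fit gave some genes a far smaller adjusted p at nearly the same change. Ly6g in the DOT1L knockout was 2.52 (edgeR adjusted p = 3.52e-25), against 2.53 (3.15e-07). For Piga the adjusted p was larger (0.0988 against 0.0369). Calls made only with no filter are to be read beside that. The causes were not tested, beyond fewer libraries where some are left out.

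Replicate numbers were shared by the groups. Samples with the same number deviated together at over 0.1 for every number in 6 of 28 pairs of groups, so the numbers were not treated as pairs. The correlations ran from -0.02 (MLLT1 G1 with MLLT6 G1) to 0.53 (MLLT10 G1 with MLLT10 G2) for replicate 1. For replicate 3 they ran from -0.41 (MLLT1 G2 with MLLT6 G1) to 0.47 (control with MLLT1 G2). Whether libraries with the same number share a batch was not tested. The replicate block moved no other count of members called by over 1.5 times. Sign changes were in uncalled values: Ly6c1 in MLLT1 against DOT1L was 0.08 with library totals alone, and without all 4 libraries Ly6c2 was -0.05 in MLLT10 against MLLT1 and -0.17 in MLLT10 against MLLT6, where Ly6c1 was -0.15. When single libraries were left out, the ranges were -0.09 to 0.36 for Ly6g and -0.71 to 0.11 for Ly6g5b in MLLT10 against the control, -0.10 to 0.57 for Ly6c1 and -0.11 to 0.21 for Ly6c2 in MLLT1 against the control, and -0.04 to 0.28 for Ly6c2, -0.12 to 0.06 for Ly6e, -0.04 to 0.78 for Ly6g5b and -0.52 to 0.03 for Lypd6b in MLLT6 against the control. They were -0.04 to 0.41 and -0.36 to 0.09 for Ly6c1 in MLLT6 and MLLT1 against DOT1L, and -0.01 to 0.24 and -0.18 to 0.01 for Ly6c2 in MLLT10 and MLLT1 against MLLT6. Of the genes named from lists, Cmpk2 in MLLT1 was lost in a fit of its groups alone (adjusted p = 0.142) and without control replicate 2 or 3 (0.283 and 0.0741), MLLT1 G1 replicate 2 (0.0582) or MLLT1 G2 replicate 1 (0.0619). The identity of the proteins was not run.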
